A study of Mus musculus with 104 samples.

Results

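The 45 genes described here encode the machinery of the lysosome. They were listed by symbol for what their products do, with earlier results of these data known. They comprise 9 protease genes (cathepsins and legumain), 7 glycosidases, 8 genes for lipid hydrolases, their activators and neuronal ceroid proteins, 7 membrane proteins including a calcium channel, 3 MiT/TFE transcription factors, and the proton pump with 5 subunits of its membrane sector V0 and 6 of its cytosolic sector V1. All 45 were found in each of the 8 tables of this mouse RNA-seq study, among 24940 listed genes.

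The lysosome is the acidic organelle in which a cell breaks down what it has eaten and its own worn-out parts. The vacuolar ATPase (V-ATPase) makes it acidic: its V1 sector splits ATP on the cytosolic side and turns the ring of the V0 sector, which carries protons across the membrane, and the low pH activates proteases, glycosidases and lipid hydrolases inside. TFEB, TFE3 and MITF are related transcription factors that bind E-box-like motifs at many lysosomal genes, and Kupffer cells, the macrophages resident in liver, take up dying cells, particles and lipoproteins from sinusoidal blood and digest them in lysosomes.

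The study holds 104 libraries in 47 groups of 2 to 4. The 8 tables were normalised separately, so every test was made within a table. No label says that libraries of 1 group are from different mice or different cultures, and p-values measure only the spread between these samples.

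The niche-refilling table holds 4 libraries of Ly6C high blood monocytes from untreated C57BL/6J mice. Replicate 4 is titled a pool, and the number of mice in each monocyte library is not given in the labels. The table sets them beside repopulating liver macrophages of Clec4f-cre/Rosa26iDTR mice, in which Cre driven by the Kupffer cell gene Clec4f switches on a diphtheria toxin receptor and toxin kills the resident cells. These were taken 12, 24, 48, 72, 168 and 336 h after toxin in 2, 3, 2, 2, 3 and 3 libraries, and 3 libraries of Kupffer cells came from the same strain 72 h after PBS. Strain and cell type therefore cannot be told apart between monocytes and liver macrophages. The Nr1h3 table concerns LXR-alpha, a sterol-sensing nuclear receptor. It holds Kupffer cells positive for the surface receptor TIM4 from Nr1h3 flox/flox controls, TIM4+ and TIM4- Kupffer cells from Nr1h3 flox/flox Clec4f-cre +/- mice, and bone marrow-derived macrophages (BMDMs) cultured for 7 days from Nr1h3 WT and Nr1h3 KO mice. Each of these 5 groups has 2 libraries. The STAB2 table holds cells of untreated C57BL/6J livers in 3 sorts by their surface STAB2, low, intermediate and high, with 2 libraries each. STAB2 is a scavenger receptor found on the endothelium of sinusoids. The Smad4 tables concern SMAD4, with which the other SMADs pair to pass on TGF-beta signals. One holds Kupffer cells of Smad4 flox/flox controls (2 libraries) and of Smad4 flox/flox Clec4f-cre +/- mice, split into TIM4+ (3) and TIM4- (2). The other holds BMDMs cultured for 4 days from Smad4 flox/flox mice and from the Smad4-deleted line, which the sample labels give as Clec4f-cre and the series design as LysM-cre. These were left untreated or given TGF-beta, the Notch ligand DLL4, DLL4 with the gamma-secretase inhibitor DAPT, or DLL4 with TGF-beta for 24 h, with 2 libraries per group.

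The C57BL/6J BMDM table holds cells cultured for 4 days and treated for 24 h with nothing, DLL4, the synthetic LXR ligand DMHCA, DLL4 with TGF-beta, or all 3 agents. A further set cultured for 6 days and titled 72 h was left untreated or given DLL4, DLL4 with TGF-beta, or all 3 agents. Every group has 2 libraries, and the treated 72 h libraries carry 24 h in a treatment label, so the title was followed. The Notch-blockade table holds repopulating macrophages 24 h after toxin. The mice had received LY411575, another inhibitor of gamma-secretase (3 libraries against 2 controls) or antibodies to the ligands DLL1 and DLL4 (4 against 2). These are labelled C57BL/6J although the design names the toxin-receptor strain, and a label of the control libraries also names the agent so that their titles were followed. The column names give females for LY411575, males for the antibodies and fasted mice for both, controls included. The marrow-monocyte table holds C57BL/6J bone marrow monocytes cultured for 2 days and treated for 48 h with nothing, DLL4, desmosterol (a cholesterol precursor that activates LXR), DLL4 with TGF-beta, or all 3, with 2 libraries each. Its column names give males and call the cells BMDM, whereas the titles name marrow monocytes, and the titles were followed.

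Reads recovered from the values ran from 7830284 to 27776223 per library. Checks of the deleted or sorted genes bear on several results below. Nr1h3 stood at 8.05 and 8.81 TPM in knockout BMDMs against 41.9 and 43.3 in wild type, but at 391 and 422 TPM in TIM4+ Kupffer libraries labelled knockout against 393 and 409 in controls. A sum over exons does not show whether the deleted part was read, so these values do not check that label. Smad4 was lower in every Smad4-deleted group than in its controls, at 13.7, 19.5 and 21.5 TPM in TIM4+ Kupffer cells against 33.4 and 35.7. Across the niche-refilling table the 6 blood monocyte markers summed to 4655 to 6422 TPM in monocytes, 1253 to 3504 at 12 h and 27.4 to 46 in Kupffer cells. The 6 Kupffer cell markers went the other way, with 0.0520 to 0.889 TPM in monocytes (Clec4f and Marco at 0 in all 4), 3.57 to 5.36 at 12 h and 13493 to 14812 in Kupffer cells. Markers of hepatocytes (7 genes) summed to 1.36 to 5.21 TPM in monocytes, 336 to 1280.2 at 12 h and 361 to 4592 in Kupffer cells. Those of sinusoidal endothelium (7) summed to 1.19 to 1.83, 296 to 636 and 257 to 376 TPM in the same order. What these other cells add to the lysosomal genes was not tested, and in bulk RNA fewer cells of a type and less RNA per cell cannot be told apart. Some members share exon bases with other annotated genes (GENCODE), among them Ctsd (34.4% with Gm49369 on the same strand), Ctsl (26.8% with Gm47123 on the opposite strand) and Ctsb (12.8% with Fdft1 on the opposite strand). The kit keeps strand per the labels, but whether counting used it is not given in the sources used here, so reads of these genes may be split or mixed.

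Lysosomal genes took a larger share of the RNA in liver macrophages than in monocytes. The 45 genes together held 2.89% ± 0.0745 of summed TPM in blood monocytes (mean ± SD, n = 4), 6.00% ± 1.25 in 12 h macrophages (n = 2) and 5.25% ± 0.272 in Kupffer cells (n = 3). The 12 h libraries differed from each other, at 5.12% and 6.88%, yet both lay above every monocyte library. TPM is scaled for transcript length, so levels may be set beside each other across genes. In monocytes Psap, the precursor of the saposin activators, led with 4635 ± 381 TPM, followed by the cysteine protease gene Ctss at 1930.3 ± 82.9 and Laptm5, a lysosomal membrane protein of blood cells, at 1352 ± 102. In Kupffer cells Ctsb led with 3790.2 ± 332 TPM, ahead of Psap at 3259 ± 202, Ctss at 2820.1 ± 176 and Lgmn at 2714 ± 27.9. The Ctss and Lgmn values differed by less than the spread between Ctss libraries, which ran from 2684 to 3018 TPM. The lowest member was Atp6v0d2, an alternative d subunit of the pump known from osteoclasts, at 0.0395 ± 0.0267 TPM in monocytes and 1.07 ± 0.318 in Kupffer cells.

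Members are counted as called where limma, run on log2(TPM + 1) over all genes of a table, gave at least a 2-fold difference with an adjusted p (Benjamini-Hochberg) below 0.05. Differences below are on that log2 scale with the limma standard error (SE), which understates changes of genes with low TPM. Each count of members called in this way is set beside the percentage of all tested genes called the same way. Counts at an unadjusted p, by limma-voom, under other scalings or with libraries left out were made for the members only. They do not show whether members differ more often than other genes.

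Kupffer cells differed from blood monocytes mainly in their hydrolases. Of 45 members 14 were called higher and 2 lower, against 19.2% and 16% of the 11373 genes tested (median log2 difference 0.61 over the members and -0.06 over all genes). The higher members were 6 of 9 cathepsins and legumain, 4 of 7 glycosidases, 3 of 8 lipid hydrolase genes and 1 of 7 membrane proteins, while none of the 11 pump subunits and none of the 3 transcription factor genes were called. These counts are from limma on log2(TPM + 1). Quantile normalization called 18 members higher and 2 lower, and limma-voom on the recovered reads 19 and 2.

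Among the proteases, Lgmn (mm10 chromosome 12, 102394082 to 102439813, - strand) encodes legumain, which cleaves after asparagine and matures several cathepsins. It stood at 2684, 2721 and 2739 TPM in the Kupffer libraries and at 89.2, 96.8, 97.2 and 109 in the monocyte libraries. The groups lay far apart, with a 27.5-fold difference (log2 4.78 ± 0.15, adjusted p = 6e-15). Ctsl (chromosome 13, 64361890 to 64370520, - strand), a cysteine protease gene, stood at 161.2, 180.1 and 199 against 6.68, 11.1, 11.7 and 13 TPM. Every Kupffer library was again above every monocyte library (log2 3.99 ± 0.26, adjusted p = 1.6e-10). Ctsd (chromosome 7, 142375916 to 142387870, - strand), which encodes the main aspartic protease of lysosomes, gave 2163, 2200.4 and 2638 against 139.6, 183, 187 and 266 TPM. Its groups did not overlap (log2 3.61 ± 0.20, adjusted p = 1.8e-11). Ctsb, another cysteine protease gene, was at 3472, 3764 and 4134 TPM in Kupffer cells and 455, 467, 508 and 518 in monocytes, also without overlap (log2 2.96 ± 0.14, adjusted p = 2.2e-12). The carboxypeptidase gene Ctsa and the aminopeptidase gene Ctsh were called with differences of 1.44 and 1.05.

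Of the glycosidases, Gaa encodes acid alpha-glucosidase, which degrades glycogen. Its values were 101, 109 and 111 TPM in Kupffer cells and 16.6, 18.5, 19 and 21 in monocytes. All Kupffer values were above all monocyte values (log2 2.45 ± 0.10, adjusted p = 4.6e-13). Glb1, for beta-galactosidase, Man2b1, for alpha-mannosidase, and Neu1, for sialidase, were higher by 1.29 to 1.69. Among the lipid and ceroid genes, Grn, for progranulin, stood at 2067, 2237 and 2460.5 against 423, 452, 489 and 528 TPM, with no overlap (log2 2.25 ± 0.12, adjusted p = 1.2e-11). Lipa, the lipase of cholesteryl esters and triglycerides, and the peptidase gene Tpp1 were higher by 1.88 and 1.70.

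The members lower in Kupffer cells both act on lipids or lipid-modified proteins. Gm2a encodes the activator that presents the ganglioside GM2 to hexosaminidase. It stood at 155, 162 and 185 TPM in Kupffer cells and 397, 403, 422 and 443 in monocytes, with every monocyte library higher (log2 -1.31 ± 0.07, adjusted p = 2.2e-11). Ppt1, which encodes a thioesterase that removes palmitate from proteins, was at 87.5, 89.5 and 97.3 against 177, 199.8, 214 and 298 TPM. Its groups did not overlap (log2 -1.25 ± 0.13, adjusted p = 1.7e-07).

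The membrane protein gene called was Scarb2, for the receptor that carries glucocerebrosidase to the lysosome, at 241, 255 and 255 against 64.5, 82.3, 86.1 and 96.4 TPM. All 3 Kupffer values were higher (log2 1.61 ± 0.12, adjusted p = 7.4e-10). The abundant membrane glycoprotein gene Lamp1 stood at 1281, 1322 and 1412 against 779.7, 795, 799 and 848 TPM (log2 0.73 ± 0.09, adjusted p = 5.9e-07), under the 2-fold limit. The d subunit gene Atp6v0d1 of the pump was at 125, 135 and 141 and 129, 135, 159.1 and 168 TPM, and its groups overlapped (log2 -0.14 ± 0.11, adjusted p = 0.26).

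The promoters of several of these genes carry the palindrome TCACGTGA or its core CACGTG, letters that MiT/TFE factors are known to bind. In windows from 250 bases before to 50 after the RefSeq start, available for 38 of the 45 members, TCACGTGA occurred in 6 (15.8%) and in 304 of 27025 promoters of all genes (1.12%). CACGTG, which lies within TCACGTGA, occurred in 12 of the 38 (31.6%) and in 2187 of all promoters (8.09%). Both motifs read the same on either strand, and a match is a description of the letters, not of binding. Stretches of 30 bases around matches are shown for 4 hydrolase genes with large differences in the results that follow and for 2 pump subunit genes, with the motif in capitals, 5′ to 3′ on the strand of the gene, from RefSeq on GRCm38.p6. They lie at chr7:142387908-142387937, - strand (Ctsd), chr12:102439124-102439153, - strand (Lgmn), chr13:64370739-64370768, - strand (Ctsl), chrX:134601215-134601244, - strand and chrX:134601182-134601211, - strand (Gla), chr16:44139373-44139402, - strand (Atp6v1a) and chr8:105566050-105566079, - strand (Atp6v0d1).
Ctsd: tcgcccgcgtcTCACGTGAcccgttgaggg
Lgmn: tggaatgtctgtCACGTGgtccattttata
Ctsl: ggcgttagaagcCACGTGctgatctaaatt
Gla, distal: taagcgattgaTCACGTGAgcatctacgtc
Gla, proximal: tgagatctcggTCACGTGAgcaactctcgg
Atp6v1a: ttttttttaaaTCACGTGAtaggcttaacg
Atp6v0d1: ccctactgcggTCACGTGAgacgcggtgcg
The first base of the motif lies 236 bases before the start in Ctsl, 228 and 195 in Gla, 132 in Atp6v1a and 4 in Atp6v0d1, where the RefSeq start is that of the deposited transcript. In Ctsd it lies 99 bases before a RefSeq start that is 43 bases inside the deposited transcript. In Lgmn it lies 49 bases before the RefSeq start 721 bases inside the deposited transcript, so the Lgmn stretch is not upstream of the transcript whose level was measured.

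Macrophages taken 12 h after toxin had more RNA of several proteases, of Gla, Gaa and Lipa, and of the pump subunits Atp6v1c1 and Atp6v0c than monocytes. The same monocyte libraries serve this comparison and that of Kupffer cells. Of 45 members 16 were called higher than in monocytes and no member lower, against 12.5% and 12.7% of all genes (median log2 difference 0.65 over the members and -0.08 over all genes). In all 39 of 45 had an unadjusted p below 0.05, where 62.4% of all genes had an adjusted p below 0.05, a stricter limit. Limma-voom on the recovered reads called 17 higher and quantile normalization 15, against 19 and 18 in Kupffer cells. Which of the 2 comparisons has more members called higher thus depends on the setting. Lgmn stood at 1005 and 1833 TPM in the 12 h libraries, both above every monocyte value (log2 3.78 ± 0.17, adjusted p = 9.1e-12). Ctsd was at 1723 and 3176 TPM, a range that spanned the Kupffer values (log2 3.62 ± 0.23, adjusted p = 8.8e-10 against monocytes). Ctsb reached 1763 and 3141 TPM and Ctsl 46.7 and 54. Both were above all monocyte libraries (log2 2.27 ± 0.16, adjusted p = 3.7e-09 for Ctsb, log2 2.18 ± 0.29, adjusted p = 5.6e-06 for Ctsl). Gaa stood at 73 and 103 TPM and Lipa at 404 and 614, without overlap (log2 2.16 ± 0.12, adjusted p = 1.9e-10 and log2 1.99 ± 0.18, adjusted p = 5.9e-08).

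At 12 h the pump was called in part. Atp6v1c1, the C subunit that links V1 to V0, stood at 96.9 and 147 TPM against 32.3, 32.4, 32.8 and 35.2 in monocytes. Both 12 h values were higher (log2 1.82 ± 0.13, adjusted p = 6.3e-09). Atp6v0c, the proteolipid of the proton-carrying ring, stood at 116 and 147 against 25.5, 39.6, 40.7 and 44.1 TPM, also apart (log2 1.80 ± 0.24, adjusted p = 4.6e-06). Atp6v0a1, the a1 subunit through which protons pass, was higher by 1.19. Atp6v0d2 was at 0.710 and 1.54 TPM against 0, 0.0490, 0.05 and 0.0590, and it passed the filter on low values only through the 48 h libraries (log2 1.00 ± 0.22, adjusted p = 0.00063). That call was lost when either monocyte replicate 1 (log2 0.99) or 12 h replicate 1 (0.72) was left out, and those of Grn (0.98), Psap (0.98) and Atp6v0a1 (0.92) were lost without 12 h replicate 2. Under quantile normalization Psap (0.87) and Atp6v0d2 (0.19) also fell below 2-fold, and with no expression filter the adjusted p of Psap was 0.066. Gla, for alpha-galactosidase A, Ctsz, Cd68, Tpp1, Grn and Psap were the other members called, with differences of 1.19 to 1.89.

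**Figure D1:**
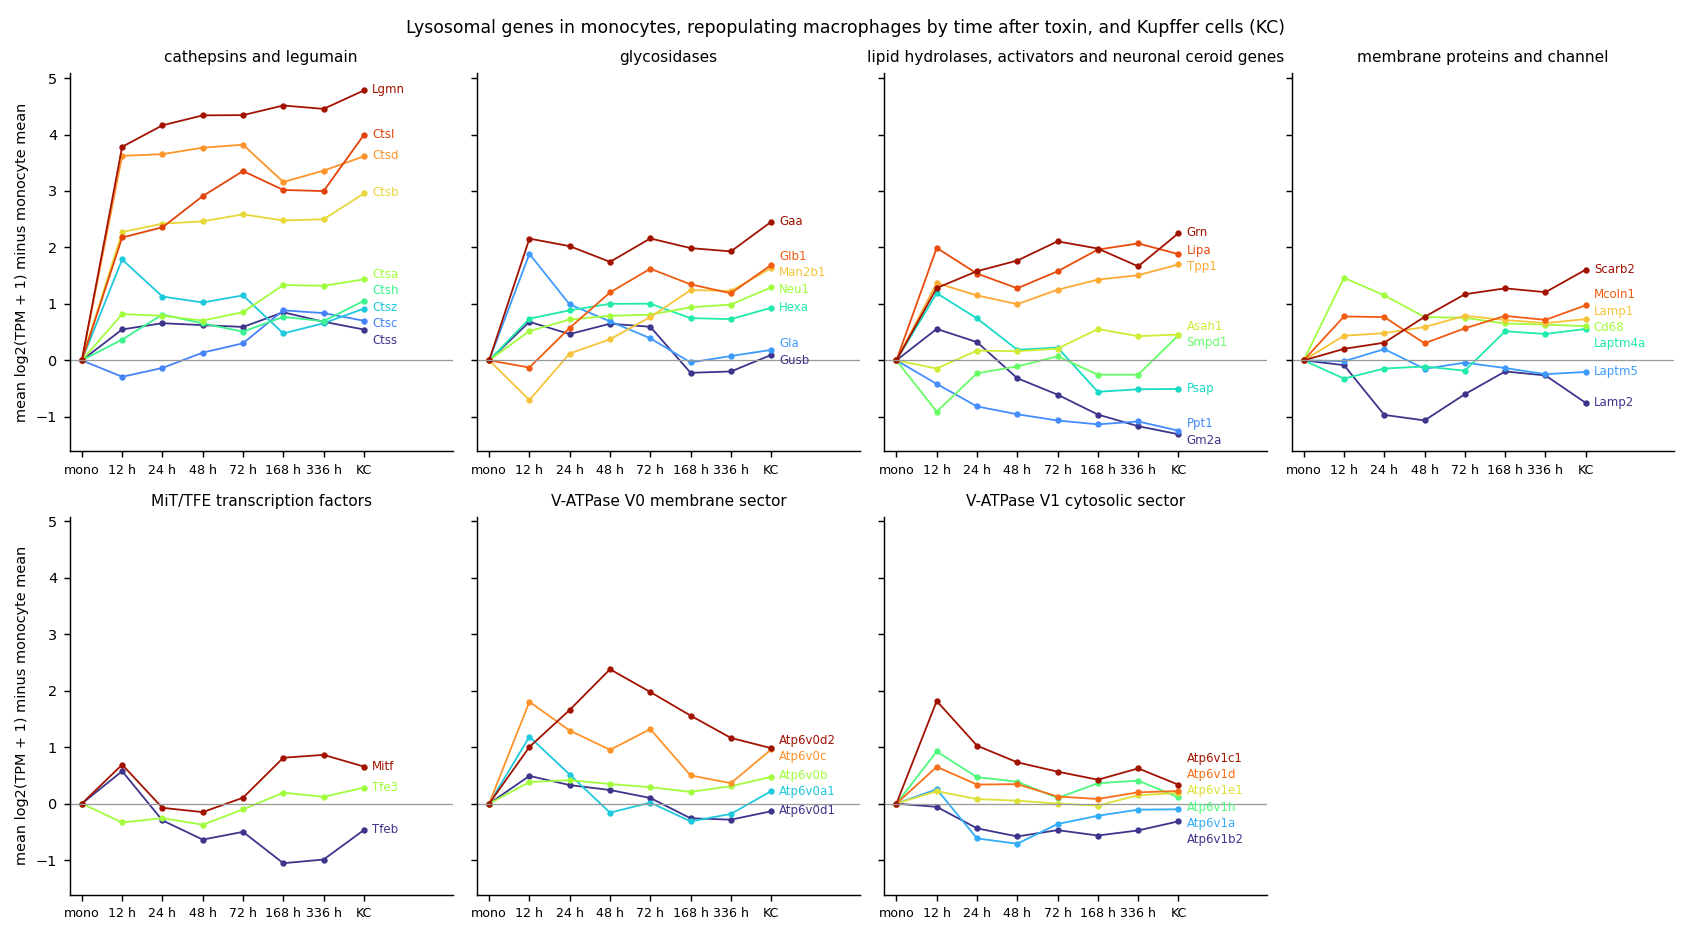
Mean log2(TPM + 1) of each of the 45 genes minus its mean in blood monocytes, drawn by role, for monocytes (mono), macrophages 12 to 336 h after toxin and Kupffer cells (KC); groups are evenly spaced, not to time. Lgmn, Ctsd and Ctsb stand more than 2 units up from 12 h on, while Gla and Atp6v1c1 are highest at 12 h and Gm2a declines at every later time.

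The 12 h macrophages differed from Kupffer cells in both directions. Against the Kupffer libraries 5 members were called higher and 5 lower (10.1% and 13.7% of all genes, median log2 difference 0.01 over the members and -0.05 over all genes). The higher ones included Gm2a, at 599 and 625 TPM at 12 h against 155, 162 and 185 in Kupffer cells. Both 12 h values were above all Kupffer values (log2 1.87 ± 0.09, adjusted p = 8.9e-12). Psap stood at 9153 and 12149 against 3122, 3164 and 3491 TPM (log2 1.70 ± 0.12, adjusted p = 2.8e-09). Gla was at 30.9 and 43.5 against 8.23, 11.9 and 12.1 TPM, Atp6v1c1 at 96.9 and 147 against 40.8, 42.5 and 43. Neither overlapped (log2 1.70 ± 0.23, adjusted p = 5.7e-06 and log2 1.48 ± 0.14, adjusted p = 9.3e-08). Tfeb, one of the transcription factor genes, stood at 64.5 and 65 TPM at 12 h against 29.9, 30.1 and 32.9. Its 12 h libraries were also above the monocytes, at 39.8, 40.7, 46 and 46.4 (log2 1.04 ± 0.11, adjusted p = 4.5e-07 against Kupffer cells, 0.99 under quantile normalization).

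Of the members lower at 12 h than in Kupffer cells, Man2b1 stood at 177 and 208 against 946, 962 and 1013 TPM. The 12 h values were also below those of monocytes, 295, 297, 319.9 and 340.2 TPM (log2 -2.34 ± 0.10, adjusted p = 2.7e-12 against Kupffer cells). Glb1 was at 26 and 26.3 against 88, 97.9 and 98.9 TPM (log2 -1.82 ± 0.11, adjusted p = 3.1e-10), and Scarb2 at 89.8 and 98.4 against 241, 255 and 255 (log2 -1.40 ± 0.14, adjusted p = 1.5e-07). Smpd1, for acid sphingomyelinase, stood at 7.72 and 8.28 against 20.8, 21.4 and 23.8 TPM (log2 -1.35 ± 0.11, adjusted p = 1e-08), and Ctsl differed by log2 -1.82 ± 0.31 with adjusted p = 7.3e-05. None of these groups overlapped. Leaving out each library in turn gave 10 to 15 calls in all.

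Between neighbouring times the steps were smaller than 2-fold. From 12 to 24 h 0 of 45 members were called by limma, 25 had an unadjusted p below 0.05 and limma-voom called 1, against 3.42% of all genes called higher and 2.74% lower. At adjusted p below 0.05, whatever the fold, 6 members were higher and 12 lower (15.9% and 11% of all genes). The lower ones included Gla (log2 -0.90 ± 0.23), Lamp2 (log2 -0.88 ± 0.14), Tfeb (log2 -0.87 ± 0.11) and the pump subunit genes Atp6v1a (log2 -0.87 ± 0.12) and Atp6v1c1 (log2 -0.79 ± 0.14). The higher ones were led by Man2b1 (log2 0.82 ± 0.10), Glb1 (log2 0.70 ± 0.11) and Smpd1 (log2 0.68 ± 0.11). The count depended on single libraries. Without 12 h replicate 1 limma called 3 members, and without 24 h replicate 1 it called 1.

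From 24 to 48 h 0 of 45 members were called by limma and 0 by limma-voom, with 13 at an unadjusted p below 0.05 (3.51% of all genes higher and 0.747% lower). From 48 to 72 h the counts were likewise 0 and 0, with 10 unadjusted (0.237% and 0.185%). Between 72 and 168 h limma called 0 members and limma-voom 0, with 21 at an unadjusted p below 0.05 (2.37% and 5.79%), and 2 were called without 72 h replicate 1. By adjusted p alone 8 members were higher and 9 lower at that step (12.7% and 21.3% of all genes). The ring subunit gene Atp6v0c (log2 -0.82 ± 0.25), Gusb, for beta-glucuronidase (log2 -0.82 ± 0.15), and Psap (log2 -0.78 ± 0.12) were lower, and Mitf (log2 0.71 ± 0.15) and Laptm4a (log2 0.70 ± 0.12) higher. From 168 to 336 h limma and limma-voom called 0 members, with 2 at an unadjusted p below 0.05 (0.0264% and 0.044%).

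The courses of Gm2a, Man2b1 and Psap over all times are given in full, chosen after their values were seen. Gm2a went from 599 and 625 TPM at 12 h to 492, 509 and 563 at 24 h, then 321 and 347 at 48 h, and later 262 and 283 at 72 h. The 168 h libraries stood at 204, 212 and 224 and those of 336 h at 184, 184 and 185 TPM. The libraries of successive times did not overlap from 12 to 336 h, and the 336 h range lay within that of Kupffer cells. Man2b1 ran in the opposite order, from 177 and 208 TPM at 12 h through 319, 339 and 363 at 24 h, then 364 and 452 at 48 h, to 526 and 539 at 72 h. The 168 h libraries stood at 724, 729 and 776 and those of 336 h at 703, 728 and 773 TPM, still below all Kupffer libraries. Psap was lower after 12 h, with 7348, 7538 and 8383 TPM at 24 h, then 5248 and 5279.7 at 48 h, and it reached 2971, 3138 and 3329.6 at 168 h, where it overlapped Kupffer cells.

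**Figure D2:**
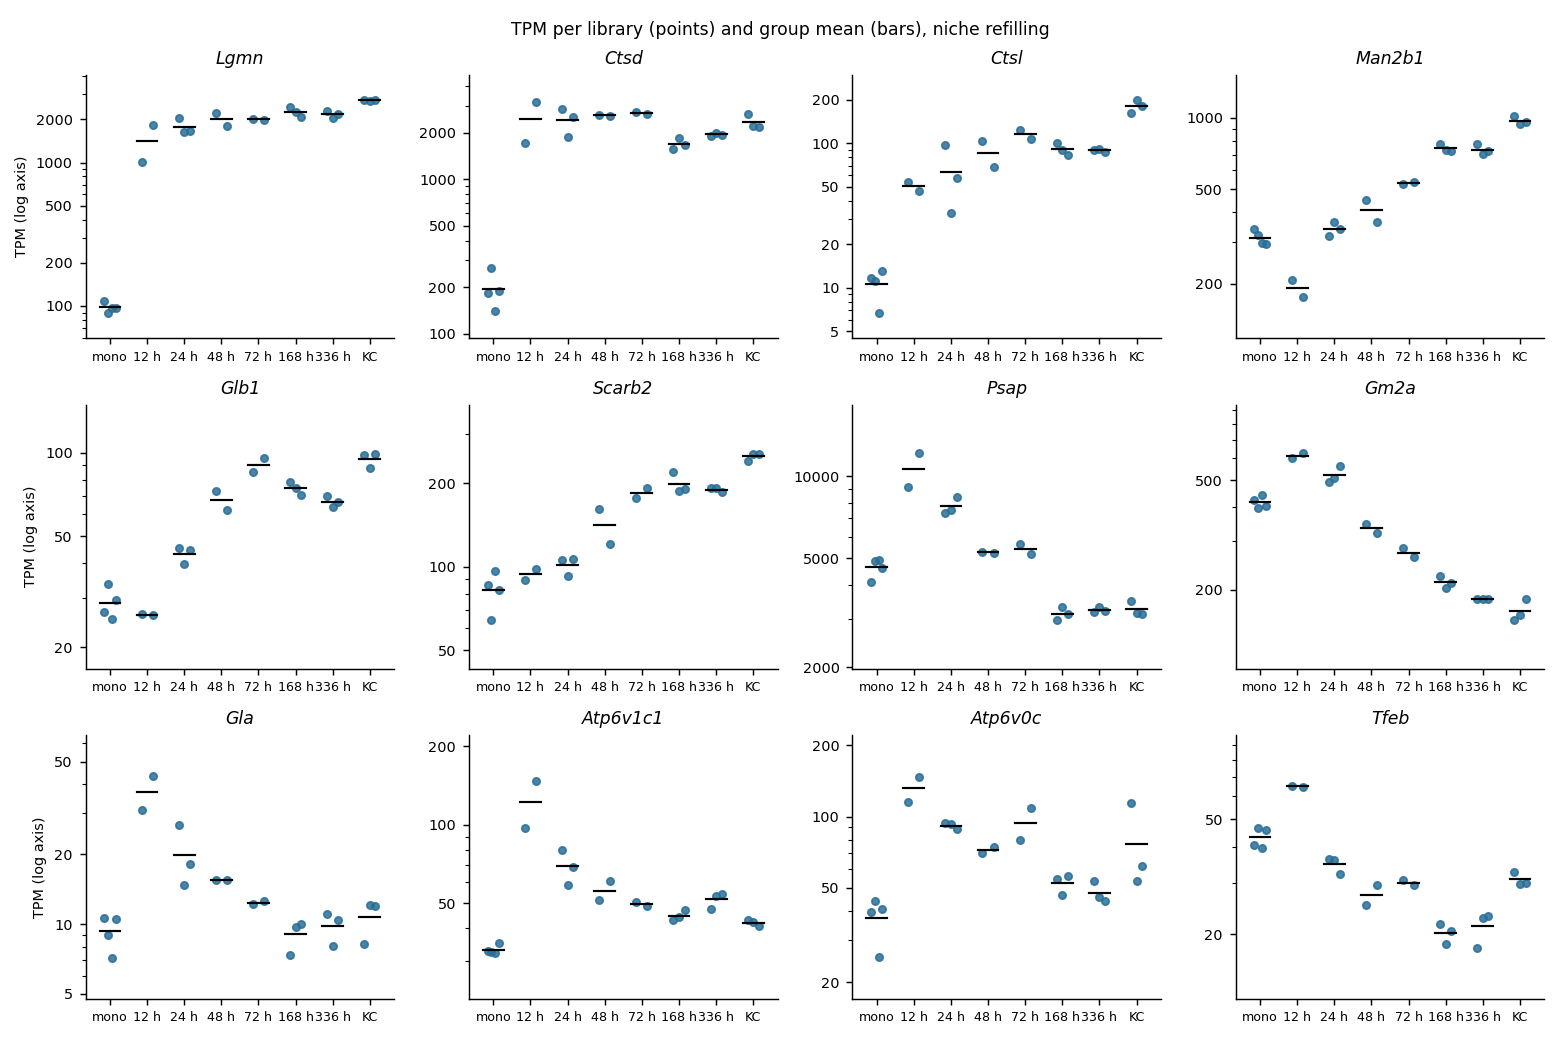
TPM of 12 lysosomal genes in each library (points) and the group mean (bars) on log axes, for monocytes (mono), macrophages 12 to 336 h after toxin and Kupffer cells (KC). Man2b1 and Glb1 are lowest at 12 h, Psap, Gla, Atp6v1c1 and Tfeb highest there, and the 24 h libraries of Ctsl are widely spread.

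In refilled macrophages at 336 h no member was called against Kupffer cells, and few of all genes were. Limma called 0 of 45 members, limma-voom 0, and 18 had an unadjusted p below 0.05, against 0.932% of all genes higher and 2.89% lower. The median log2 difference was -0.16 over the members and -0.06 over all genes, with 34 members negative and 11 positive. With a pseudocount of 0.25, or without 336 h replicate 2 or Kupffer replicate 1, 1 member was called. Dropping the 2-fold limit, 1 member was higher and 11 were lower at 336 h (8.56% and 12.7% of all genes). Ctsl stood at 87.1, 89.8 and 91.7 TPM at 336 h against 161.2, 180.1 and 199 in Kupffer cells. All 336 h values were lower (log2 -0.99 ± 0.28, adjusted p = 0.017). Smpd1 was lower by log2 -0.70 ± 0.10, Grn by log2 -0.59 ± 0.13 and Tfeb by log2 -0.52 ± 0.10, and Lamp2 was the higher member (log2 0.49 ± 0.12).

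Cultured macrophages carried a different balance of lysosomal genes than Kupffer cells. Between control TIM4+ Kupffer cells and 7-day wild-type BMDMs 8 members were called higher in Kupffer cells and 14 lower, against 20.6% and 15.9% of 10558 genes (median log2 difference -0.21 over the members and 0.05 over all genes). The lower ones held 4 of 5 V0 (Atp6v0d2, which passed the filter only through the BMDM libraries, among them) and 4 of 6 V1 subunits of the pump, and no pump subunit was called higher. Tissue and culture differ in strain, source and handling at once, which cannot be told apart.

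Of the members higher in Kupffer cells, Ctsc, for the dipeptidyl peptidase that activates granule proteases, stood at 369.8 and 429 TPM in Kupffer cells and 22.9 and 24.7 in BMDMs. The Kupffer libraries were 16.1-fold higher (log2 4.01 ± 0.08, adjusted p = 9e-10). Ctsh stood at 856 and 899 against 82.3 and 84.7 TPM (log2 3.38 ± 0.06, adjusted p = 3.3e-10), and Man2b1 at 788 and 794 against 165 and 168 (log2 2.24 ± 0.05, adjusted p = 1.6e-09). These groups did not overlap. Scarb2 was at 214 and 238 against 54.7 and 55.4 TPM (log2 2.02 ± 0.06, adjusted p = 8.7e-09), Lgmn at 2599 and 2715 against 649.6 and 666 (log2 2.01 ± 0.05, adjusted p = 3.1e-09), and Gm2a at 183 and 189 against 55.3 and 57 (log2 1.71 ± 0.06, adjusted p = 2.1e-08). All Kupffer values were above all BMDM values. Laptm4a was higher by 1.41, and Asah1, for acid ceramidase, by 1.01, a call lost with limma-voom (0.94), without control Kupffer replicate 2 (0.92) or without wild-type BMDM replicate 1 (0.98).

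Of the members lower in Kupffer cells, Atp6v0d2 stood at 1.33 and 1.34 TPM against 30.7 and 42.9 in BMDMs. The groups lay well apart (log2 -4.00 ± 0.18, adjusted p = 8.8e-08). Its close relative Atp6v0d1 differed less, at 121 and 123 against 259 and 267 TPM (log2 -1.10 ± 0.07, adjusted p = 1e-06). Ctsl was at 86 and 96.7 TPM in Kupffer cells and 769 and 777 in BMDMs (log2 -3.07 ± 0.07, adjusted p = 1.3e-09). Thus Ctsl, higher in Kupffer cells than in monocytes, was lower in them than in BMDMs. Gla stood at 10.8 and 12.1 against 93.4 and 103 TPM (log2 -2.99 ± 0.09, adjusted p = 8.5e-09), Atp6v0a1 at 26.5 and 30.1 against 155 and 158 (log2 -2.43 ± 0.07, adjusted p = 8.5e-09), and Atp6v1c1 at 35.2 and 40.0 against 192 and 206 (log2 -2.37 ± 0.10, adjusted p = 8.1e-08). In each the BMDM libraries were higher without overlap. Gusb was at 88.4 and 89.4 against 445 and 450.3 TPM (log2 -2.32 ± 0.06, adjusted p = 2.3e-09). The remaining 7, namely Ctsd, Ctsz, Cd68, Atp6v0c, Atp6v1a, Atp6v1h and Atp6v1b2, differed by -2.07 to -1.0, and the Atp6v1b2 call was lost under quantile normalization (-0.99), without control Kupffer replicate 2 (-0.99) or without wild-type BMDM replicate 2 (-0.96).

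Kupffer libraries labelled Nr1h3 knockout differed from controls by less than 2-fold in every member tested. In TIM4+ Kupffer libraries labelled knockout limma called 0 of 45 members and limma-voom 0, with 23 at an unadjusted p below 0.05 (1.57% of all genes higher and 1.29% lower), and 1 member was called without control replicate 1. By adjusted p alone 9 members were higher and 4 lower (17.2% and 6.28% of all genes). Atp6v0a1 stood at 53.8 and 55.7 TPM against 26.5 and 30.1 in controls. Both libraries labelled knockout were higher (log2 0.93 ± 0.07, adjusted p = 7.5e-05). Lgmn was at 1668 and 1696 against 2599 and 2715 TPM, lower in both (log2 -0.66 ± 0.05, adjusted p = 7.2e-05). Kupffer cell markers summed to 7381 to 8004 TPM there against 16876 to 16914 in controls, and their part in these values was not tested. TIM4- against TIM4+ libraries labelled knockout gave 0 calls by limma and 0 by limma-voom, with 3 unadjusted (0.123% and 0.474%). Knockout against wild-type BMDMs also gave 0 by limma and 0 by limma-voom, with 9 at an unadjusted p below 0.05 (0.0284% and 0.388%).

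In Kupffer cells of the Smad4-deleted line no member passed the threshold. Against controls limma called 0 of 44 tested members and limma-voom 0, and 10 had an unadjusted p below 0.05 (0.593% of all genes higher and 0.372% lower). The members' differences ran from -0.64 to 0.64, with a median of 0.03. TIM4- against TIM4+ cells of the deleted line gave 0 calls by limma and 0 by limma-voom, with 4 unadjusted (0% and 0.0503%). The title number of 1 TIM4+ library recurs in 1 TIM4- library, and the deviations of these 2 libraries from their group means correlated at 0.651 across genes. Whether they come from 1 mouse is not given in the labels. With that shared number as a covariate limma again called 0 members, with 7 at an unadjusted p below 0.05 for TIM4- against TIM4+ and 14 against controls. Lgmn stood at 2207 and 2286 TPM in controls and 2105, 2150.5 and 2455 in TIM4+ deleted cells. These ranges overlapped (log2 -0.01 ± 0.12, adjusted p = 0.99). The largest member differences from controls were higher Ctsd (log2 0.64 ± 0.13, adjusted p = 0.088) and Psap (log2 0.64 ± 0.13, adjusted p = 0.075). Ctsh was lower (log2 -0.64 ± 0.18, adjusted p = 0.17). Deleted TIM4+ and control libraries did not overlap for these genes, but no member had an adjusted p below 0.05.

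STAB2 low cells had less Ctsl, Lgmn and Lamp2 and more Ctsh than STAB2 high cells. The sort can be read in Stab2 itself, at 67 and 116 TPM in low and 1575 and 1713 in high libraries. Of 42 tested members 1 was called higher and 4 lower in STAB2 low than in STAB2 high cells (8.09% and 5.54% of 10576 genes, median log2 difference -0.15 over the members and 0.08 over all genes), and Ctsc, Mitf and Atp6v0d2 did not pass the filter. Ctsh stood at 124 and 168 TPM in STAB2 low and 6.51 and 7.10 in STAB2 high libraries. The difference was 18.7-fold (log2 4.22 ± 0.24, adjusted p = 0.00011). Ctsl was at 87.3 and 93.7 against 402 and 431 TPM, lower in STAB2 low without overlap (log2 -2.19 ± 0.10, adjusted p = 7.7e-05). Lgmn was at 160.2 and 187 against 433 and 438 TPM (log2 -1.33 ± 0.10, adjusted p = 0.0003), and Lamp2 at 262 and 277 against 586 and 679 (log2 -1.22 ± 0.12, adjusted p = 0.0006). Atp6v1d, a V1 stalk subunit, stood at 39.5 and 42.7 against 80.1 and 89.6 TPM (log2 -1.03 ± 0.11, adjusted p = 0.001), and its call was lost without the library titled Stab2Low_317 (-0.97) or that titled Stab2Hig_210 (-0.95).

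Markers moved between these sorts. Sinusoidal endothelium genes (7) summed to 4489.9 to 5185 TPM in STAB2 low and 15513 to 16497 in STAB2 high libraries, and large-vessel endothelium genes (4) to 3634 to 4275 and 528 to 548. Macrophage genes (6) summed to 124 to 127 and 323 to 335 TPM, and hepatocyte genes (7) to 42.9 to 52.1 and 182 to 186. Their part in the lysosomal values was not tested. Between STAB2 intermediate and high libraries limma called 0 of 42 members and limma-voom 0, with 2 at an unadjusted p below 0.05 (0.00946% and 0%).

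Across the 41 comparisons, which share groups and so are not independent, 38 of the 45 members were called at least once, in 130 calls. The share of all genes called at least once was not counted. In Kupffer cells against BMDMs alone 20.6% of all genes were called higher and 15.9% lower. Ctsl was called 13 times, Atp6v0d2 12 times and Ctsh 12 times, so that these 3 genes made 37 of the calls. Atp6v0d2 passed the filter only through 1 group in the niche-refilling, Nr1h3 and Notch-blockade tables, so its rank supports nothing. Gm2a followed with 10, and Scarb2 with 7. The 7 members never called were Atp6v0b and Atp6v1e1 of the pump, Hexa of the glycosidases, Lamp1, Laptm5 and Mcoln1 of the membrane proteins, and Tfe3. Lamp1 differed by -0.53 to 0.73 and Tfe3 by -0.62 to 0.43 over the comparisons.

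**Figure D3:**
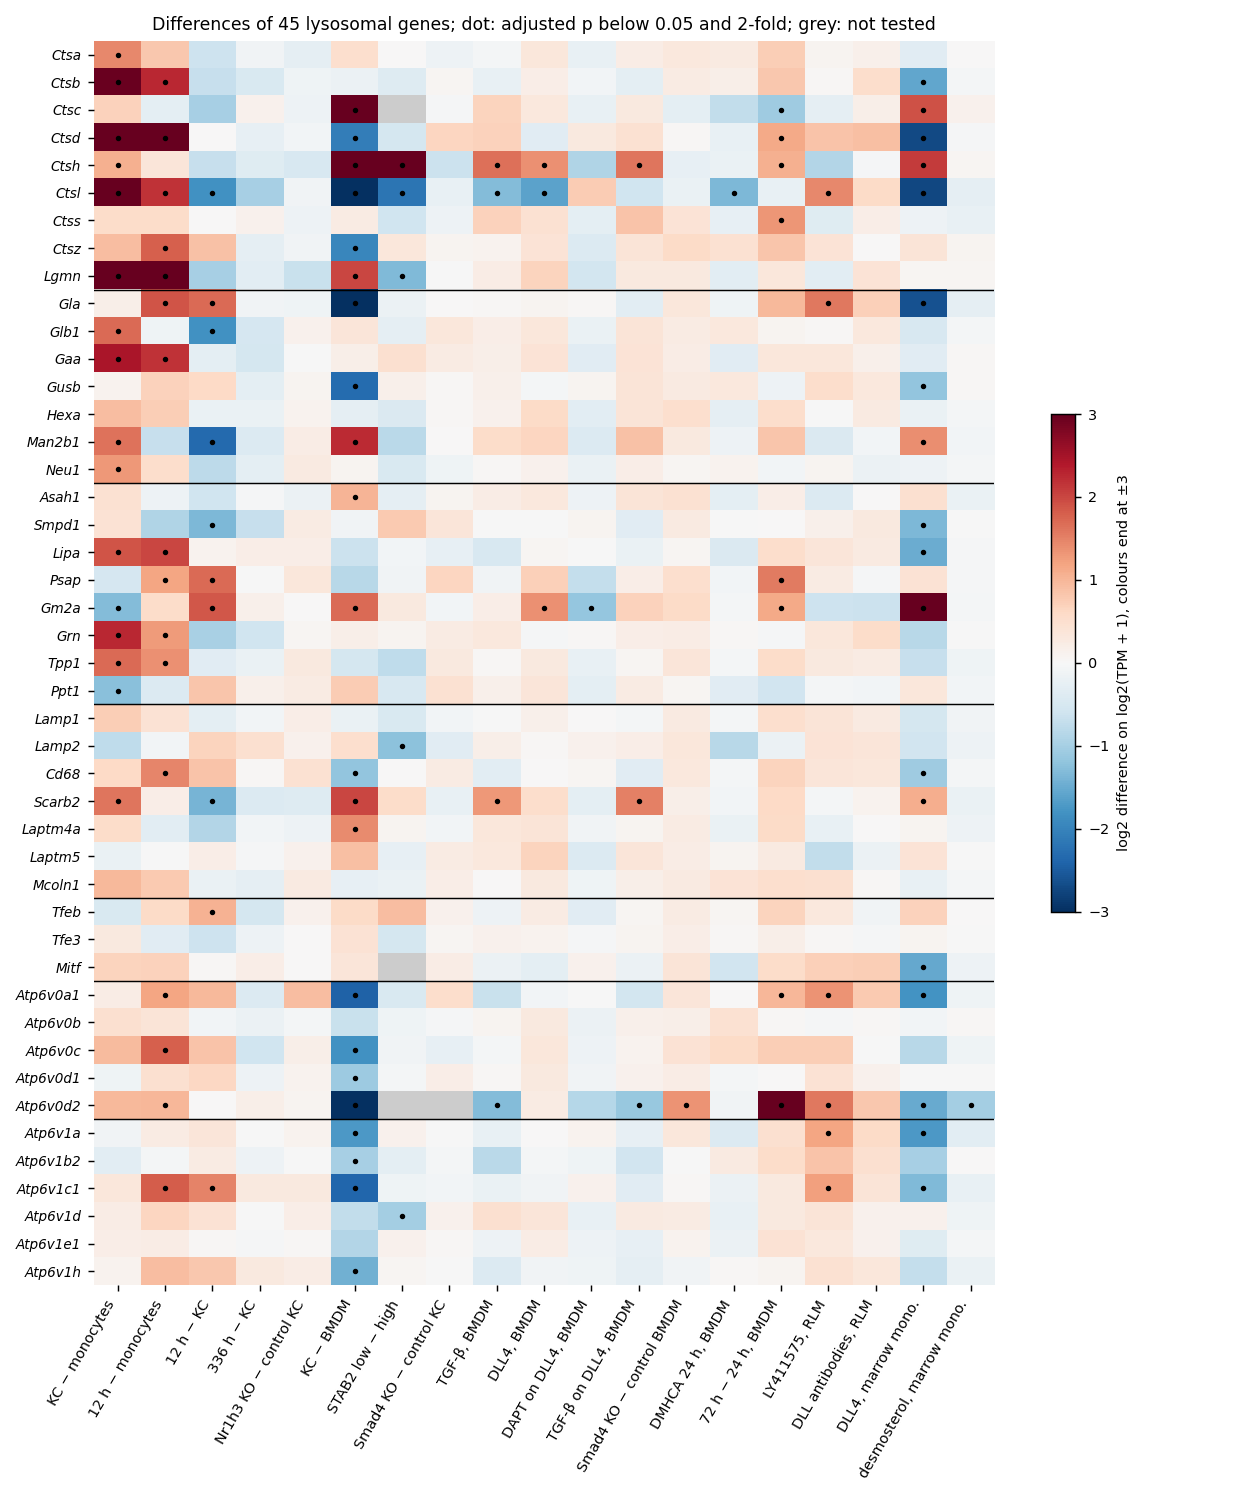
Log2 differences of the 45 genes (rows, by role) in 19 comparisons (columns); red is higher in the first-named or treated group, blue lower, grey not tested, and a dot marks adjusted p below 0.05 with 2-fold. Ctsl is blue and Ctsh red, both with dots, with TGF-beta or DLL4 alone in Smad4 flox/flox BMDMs and with DLL4 in marrow monocytes, and all 11 pump genes at the bottom are blue in Kupffer cells against BMDMs.

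In control Smad4 flox/flox BMDMs TGF-beta changed few lysosomal genes by 2-fold. It gave 2 members called higher and 2 lower (2.61% and 1.56% of 10267 genes, median log2 difference 0.05 over the members and -0.04 over all genes). Ctsh stood at 301 and 373 TPM with TGF-beta and 102 and 109 without. Both treated libraries were higher (log2 1.66 ± 0.08, adjusted p = 9.8e-10). Scarb2 was at 121 and 159.04 against 54.9 and 57 TPM (log2 1.30 ± 0.09, adjusted p = 5.4e-08). Ctsl was at 201 and 244 against 540.3 and 558 TPM (log2 -1.31 ± 0.07, adjusted p = 4.2e-09), and Atp6v0d2 at 3.96 and 7.40 against 13 and 17.1 (log2 -1.30 ± 0.19, adjusted p = 0.00011). These were lower with TGF-beta without overlap, and the Atp6v0d2 call was lost without TGF-beta replicate 1 (-0.92).

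DLL4, which activates Notch, gave 2 members higher and 1 lower in the same cells (2.89% and 1.17% of all genes, median log2 difference 0.28 over the members and -0.03 over all genes). Dropping the 2-fold limit, 25 were higher and 3 lower at adjusted p below 0.05 (20.6% and 24.4%). Ctsh stood at 266 and 279 TPM with DLL4 (log2 1.36 ± 0.08, adjusted p = 9e-09). Gm2a was at 239 and 244 against 89.8 and 97.2 TPM (log2 1.36 ± 0.08, adjusted p = 1.4e-08). Ctsl was at 172 and 186 TPM (log2 -1.61 ± 0.07, adjusted p = 5.8e-10). Treated and untreated libraries were apart for all 3. DAPT added to DLL4 gave 1 call, lower, which was Gm2a at 105 and 109 TPM (log2 -1.17 ± 0.08, adjusted p = 1.3e-07; 0.341% of all genes higher and 1.75% lower). Its values then lay just above the untreated ones, and a further member was called without DLL4+DAPT replicate 2. Whatever the fold, 1 member was higher and 19 lower with DAPT (17.3% and 12% of all genes). They included Ctsh (log2 -0.91 ± 0.08), and Ctsl was the higher one (log2 0.76 ± 0.07). These comparisons share libraries, so their values are given side by side only.

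TGF-beta added to DLL4 gave 2 higher and 1 lower (2.62% and 4.04%, median log2 difference 0.17 over the members and -0.09 over all genes). Ctsh reached 812 and 838 TPM, above every other group of this table (log2 1.59 ± 0.08, adjusted p = 1.5e-09 against DLL4 alone). Scarb2 stood at 225 and 246 against 79.5 and 83.7 TPM (log2 1.51 ± 0.09, adjusted p = 9.7e-09), and Atp6v0d2 at 6.87 and 8.26 against 16.3 and 19.4 (log2 -1.14 ± 0.19, adjusted p = 0.00024). None of these overlapped.

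Smad4-deleted BMDMs differed from controls already without treatment. Atp6v0d2 was the 1 member called, higher at 39.7 and 39.9 TPM against 13 and 17.1 (log2 1.36 ± 0.19, adjusted p = 0.00028; 0.75% of all genes higher and 0.38% lower). With no minimum fold 26 members were higher and 2 lower (10.7% and 13.2% of all genes, median log2 difference 0.25 over the members and -0.04 over all genes). Neutrophil markers (7 genes) summed to 2216 to 2366 TPM in deleted and 3968 to 4123 in control cells, and their part was not tested. In the deleted cells TGF-beta gave 0 calls by limma and 0 by limma-voom, with 16 at an unadjusted p below 0.05 (0.506% and 0.039%). DLL4 gave 1 higher and 1 lower there (2.21% and 1.18%). Ctsh stood at 193 and 193 against 85.3 and 91.8 TPM (log2 1.11 ± 0.08, adjusted p = 1.1e-07), and Ctsl at 183 and 185 against 479 and 485 (log2 -1.39 ± 0.07, adjusted p = 4e-09).

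The interaction of treatment and genotype tested whether the responses differed. For TGF-beta 1 member was called, Ctsh, whose response was smaller in deleted cells (log2 -1.11 ± 0.11, adjusted p = 2.1e-05; 0.526% of all genes higher and 0.672% lower). Its deleted libraries with TGF-beta stood at 129 and 131 TPM, and the call was lost without control TGF-beta replicate 2 (-0.96). For Ctsl the interaction was log2 0.75 ± 0.10 (adjusted p = 0.0003) and for Scarb2 log2 -0.78 ± 0.13 (adjusted p = 0.0014), both under 2-fold. For DLL4 limma called 0 interactions and limma-voom 0, and 6 of 45 had an unadjusted p below 0.05 (0% and 0%).

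Ctsh, Gm2a and Ctsl, the members called with DLL4 in Smad4 flox/flox cells, were also the members called in C57BL/6J BMDMs at 24 h. DLL4 gave 2 higher and 1 lower (2.22% and 0.532% of 10908 genes, median log2 difference 0.19 over the members and 0.00 over all genes). Ctsh stood at 259.7 and 278 against 98.4 and 111 TPM (log2 1.36 ± 0.07, adjusted p = 2.1e-08) and Gm2a at 234 and 246 against 90.0 and 97.9 (log2 1.35 ± 0.13, adjusted p = 4.8e-06). Ctsl was at 516 and 519.8 against 1034 and 1143 TPM (log2 -1.07 ± 0.06, adjusted p = 2.2e-08), a call lost without untreated replicate 2 (-0.996). Dropping the 2-fold limit, 24 members were higher and 1 lower (15.6% and 13% of all genes), among them Psap (log2 0.95 ± 0.05) and Lgmn (log2 0.82 ± 0.05).

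The LXR ligand DMHCA gave 1 call at 24 h, lower, which was Ctsl at 422 and 426 TPM (log2 -1.36 ± 0.06, adjusted p = 1.3e-09; 2.61% of all genes higher and 2.81% lower). Both treated libraries were below the untreated ones. Whatever the fold, 9 members were higher and 18 lower (28.7% and 19.2%). Lamp2 (log2 -0.83 ± 0.05) and Ctsc (log2 -0.75 ± 0.06) were lower and the ring subunit genes Atp6v0c (log2 0.58 ± 0.08) and Atp6v0b (log2 0.47 ± 0.06) higher. Neutrophil markers summed to 262 to 271 TPM with DMHCA and 1492 to 2034 without, and monocyte markers to 56.7 to 59.6 and 401 to 413, and their part was not tested.

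TGF-beta on DLL4 at 24 h gave 2 higher and 2 lower (2.31% and 1.49%). Ctsh stood at 745 and 772 TPM (log2 1.49 ± 0.07, adjusted p = 5.5e-09) and Scarb2 at 184 and 197 against 67.4 and 69.4 (log2 1.46 ± 0.06, adjusted p = 8.5e-10). Atp6v0d2 was at 10.7 and 12 against 29.4 and 30.2 TPM (log2 -1.32 ± 0.09, adjusted p = 1.2e-07), and Ctsl at 244 and 258 (log2 -1.04 ± 0.06, adjusted p = 1.8e-08). All 4 were apart from DLL4 alone. DMHCA added to this pair gave 0 calls by limma and 0 by limma-voom, with 21 at an unadjusted p below 0.05 (0.44% and 0.788%). By adjusted p alone no member was higher and 13 were lower (9.21% and 8.43% of all genes), led by Gm2a (log2 -0.82 ± 0.13) and Psap (log2 -0.72 ± 0.05).

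**Figure D4:**
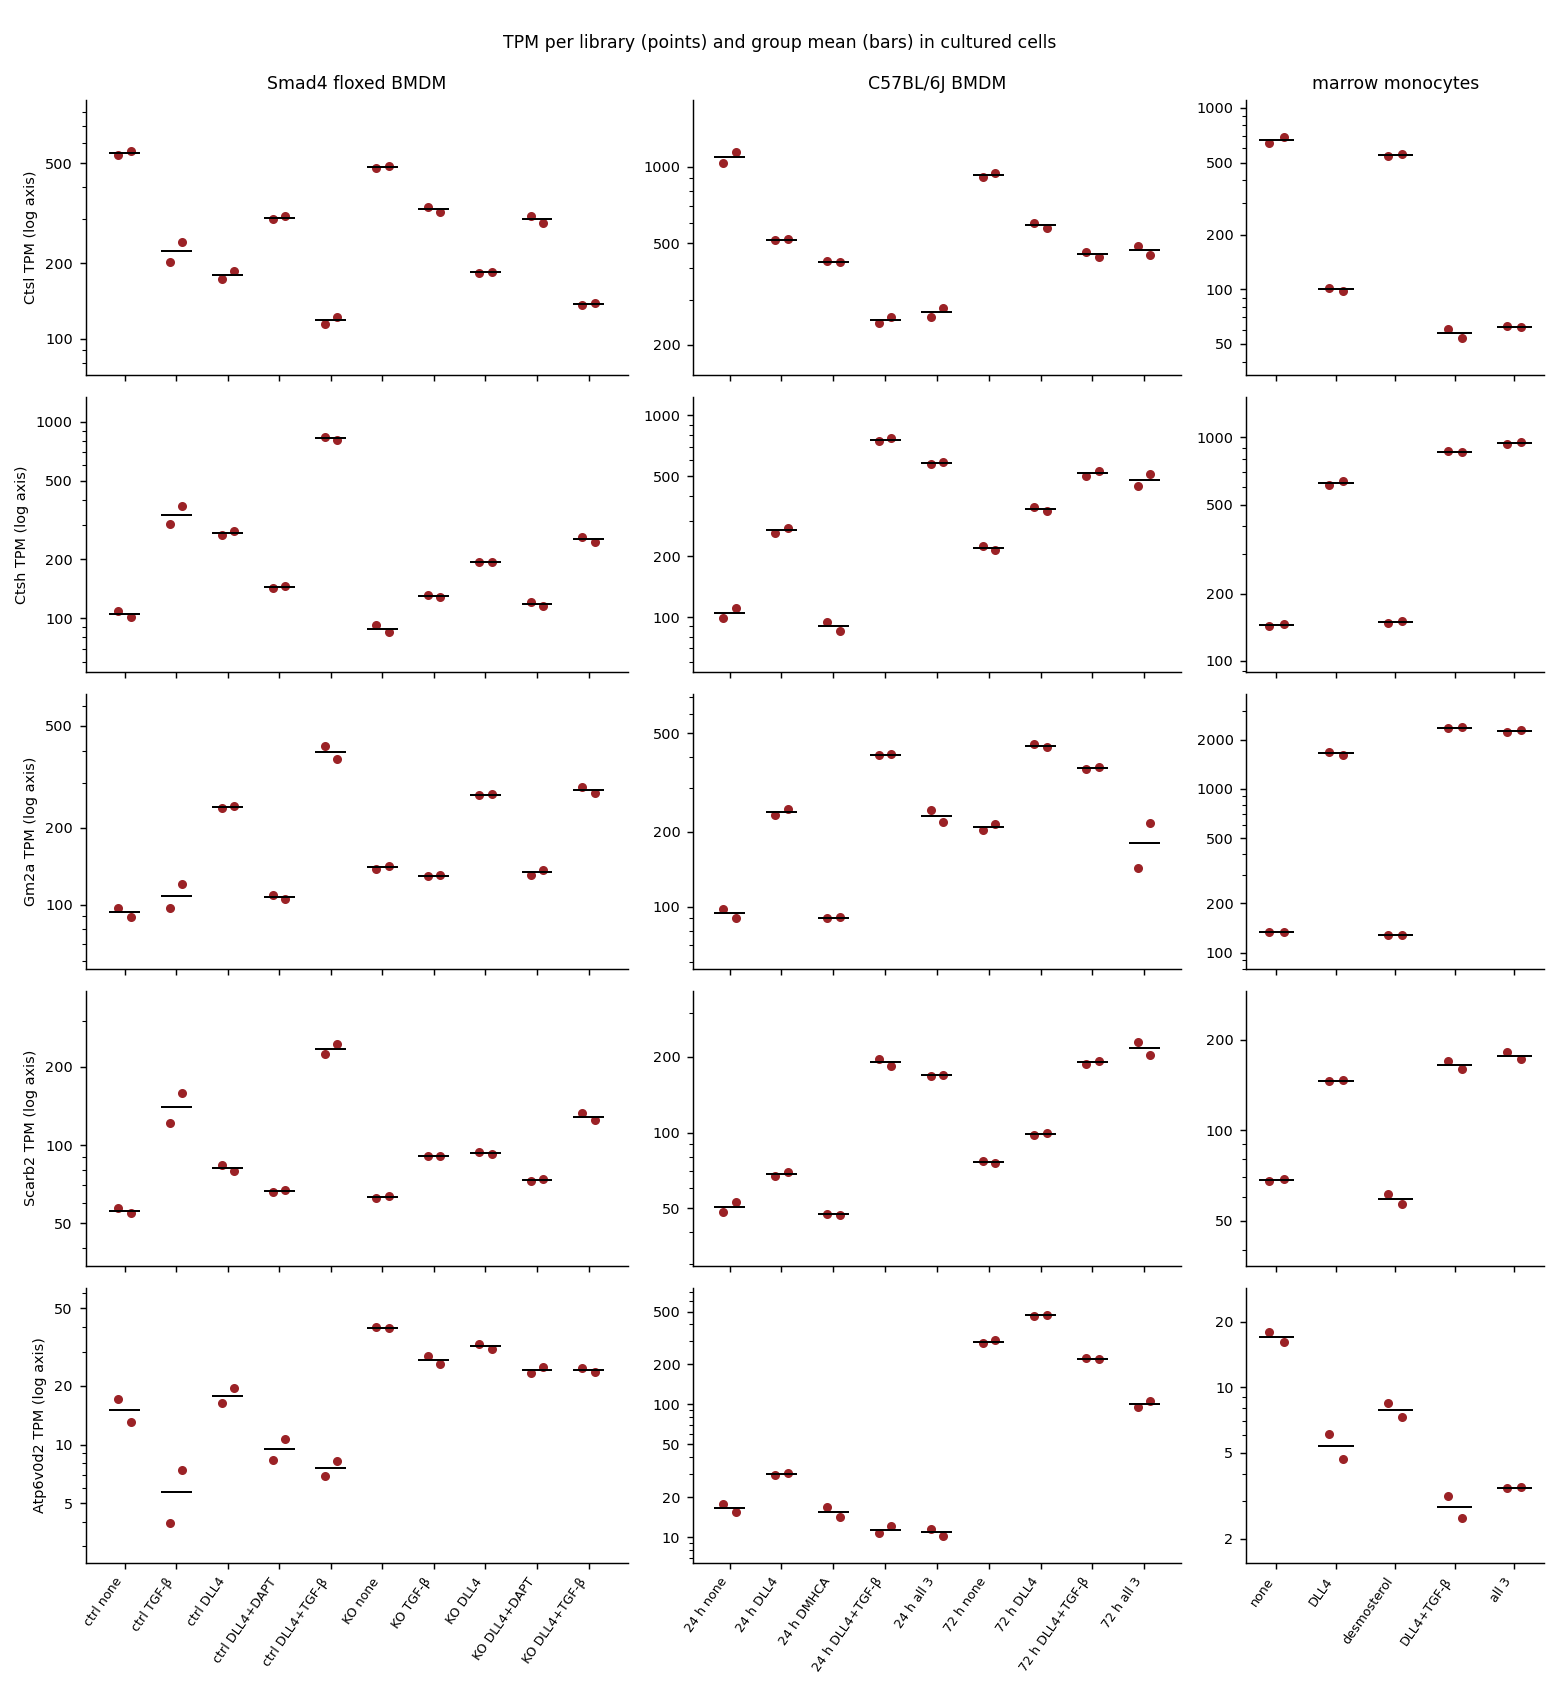
TPM of 5 lysosomal genes in each library (points) and the group mean (bars) on log axes, in Smad4 flox/flox (ctrl) and Smad4-deleted (KO) BMDMs, C57BL/6J BMDMs, and marrow monocytes; "all 3" is DLL4, TGF-beta and DMHCA, or desmosterol in marrow monocytes. Ctsl is lower and Ctsh higher with DLL4 in each panel column, and Atp6v0d2 in C57BL/6J cells is 16.9-fold higher at 72 h than at 24 h without treatment.

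Longer culture gave 8 called members, where each added agent in the same table gave at most 4. Between untreated cells titled 72 h, after 6 days of culture, and those of 24 h, after 4 days, 7 members were called higher and 1 lower (6.44% and 7.33% of all genes, median log2 difference 0.50 over the members and -0.21 over all genes). Atp6v0d2 stood at 288 and 307 TPM at 72 h against 15.5 and 17.9 at 24 h. This was the largest member difference in that comparison, 16.9-fold (log2 4.08 ± 0.09, adjusted p = 1.4e-12). Psap stood at 7639 and 7651 against 2606 and 2612 TPM (log2 1.55 ± 0.05, adjusted p = 1.7e-11) and Ctss at 4627 and 4738 against 1758 and 1988 (log2 1.32 ± 0.06, adjusted p = 3.3e-10). Gm2a was at 203 and 215 TPM at 72 h (log2 1.15 ± 0.13, adjusted p = 4.5e-06), and Ctsd at 11239 and 11455 against 5025 and 5318 (log2 1.13 ± 0.06, adjusted p = 2.7e-09). No groups overlapped. Ctsh was at 215 and 226 TPM (log2 1.07 ± 0.07, adjusted p = 3.6e-08), Atp6v0a1 was higher by 1.01, and Ctsc was lower, at 27.3 and 27.5 against 57.8 and 59.7 (log2 -1.07 ± 0.06, adjusted p = 6.7e-09).

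These calls depend on the scaling. Quantile normalization shifted the median of all genes by 0.18 in that comparison and gave 6 members higher and 0 lower, with Psap (0.84), Ctsd (0.76) and Ctsc (-0.82) below 2-fold. The Ctsd adjusted p was 0.092 with no expression filter, and Ctsh was lost without untreated 24 h replicate 1 (0.99). Atp6v0a1 was lost without untreated 24 h replicate 2 (0.97) or 72 h replicate 2 (0.96). Neutrophil markers summed to 3276 to 3392 TPM at 72 h and 1492 to 2034 at 24 h, and their part was not tested.

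At 72 h DLL4 gave 1 member called higher, Gm2a at 441 and 450.3 against 203 and 215 TPM (log2 1.09 ± 0.13, adjusted p = 6.1e-05; 1.31% of all genes higher and 0.422% lower). TGF-beta on DLL4 gave 1 lower, Atp6v0d2 at 218 and 223 against 463 and 473 TPM (log2 -1.08 ± 0.09, adjusted p = 8.3e-07; 4.02% and 1.62%). DMHCA on both gave 2 lower (0.642% and 4.57%). Atp6v0d2 was at 95.8 and 107 against 218 and 223 TPM (log2 -1.12 ± 0.09, adjusted p = 1.1e-06). Gm2a was at 143 and 218 against 357 and 364 TPM (log2 -1.03 ± 0.13, adjusted p = 4.8e-05). The 72 h groups with and without DMHCA did not overlap for either gene. The Gm2a call was lost with limma-voom (-0.97) and without the DMHCA-treated replicate 1 (-0.73).

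In mice given LY411575, macrophages at 24 h after toxin had higher levels of some pump subunits, Gla and Ctsl. LY411575 against its control gave 6 members called higher and none lower (3.73% and 2.65% of 9885 genes, median log2 difference 0.33 over the members and -0.03 over all genes), and limma-voom also called 6. With no minimum fold 26 were higher and 9 lower (14.5% and 14.3%), and 35 had an unadjusted p below 0.05. Of the 6, 2 are V0 and 2 are V1 subunits, and 1 of the V0 genes, Atp6v0d2, passed the filter only through the LY411575-treated libraries, so its count among the 6 supports nothing. Gla stood at 65.8, 65.9 and 68.3 TPM in treated and 20.8 and 22.6 in control libraries. All treated values were higher (log2 1.58 ± 0.09, adjusted p = 3.8e-07). Ctsl was at 133, 134 and 149 against 47.7 and 52.5 TPM (log2 1.45 ± 0.08, adjusted p = 2.6e-07), and Atp6v0d2 at 7.18, 9.90 and 10.1 against 2.12 and 2.60 (log2 1.57 ± 0.20, adjusted p = 0.00014). Atp6v0a1 was at 128, 136 and 151.1 against 50.3 and 57.9 TPM (log2 1.34 ± 0.09, adjusted p = 8.6e-07). Treated and control libraries of these genes did not overlap. Atp6v1c1 stood at 179, 182 and 196 against 77.5 and 80.6 TPM (log2 1.22 ± 0.06, adjusted p = 1.4e-07), and Atp6v1a, the catalytic A subunit, at 186, 193 and 199.8 against 83.7 and 85 (log2 1.18 ± 0.06, adjusted p = 1.8e-07). Again all treated values were higher.

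Antibodies to DLL1 and DLL4 gave smaller differences. Limma called 0 of 45 members and limma-voom 1, with 28 at an unadjusted p below 0.05 (0.678% of all genes higher and 1.4% lower). Whatever the fold, 21 members were higher and 2 lower (6.66% and 6.13% of all genes, median log2 difference 0.20 over the members and -0.01 over all genes). Ctsd stood at 3139, 3262, 3362 and 3381 TPM in treated and 1703 and 1829 in control libraries. All 4 treated values were higher (log2 0.90 ± 0.04, adjusted p = 2.2e-06). Atp6v0a1 was at 71.5, 72.7, 77.1 and 78.2 against 41.8 and 43.9 TPM (log2 0.79 ± 0.08, adjusted p = 0.00015), and Gla at 25.4, 27.4, 28.9 and 29.3 against 15 and 17.8 (log2 0.72 ± 0.09, adjusted p = 0.00037). Gm2a was lower, at 369, 377, 389 and 418 against 607 and 614 TPM (log2 -0.65 ± 0.06, adjusted p = 4.5e-05), and under LY411575 it differed by log2 -0.63 ± 0.06.

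The difference between both responses was tested as an interaction. No member reached 2-fold by limma and limma-voom called 0, with 28 at an unadjusted p below 0.05 (3.55% of all genes higher and 1.83% lower). By adjusted p alone the response to LY411575 minus that to the antibodies was positive for 12 members and negative for 8 (7.25% and 6.24% of all genes). Ctsl (log2 0.88 ± 0.11), Gla (log2 0.85 ± 0.13), Atp6v1c1 (log2 0.84 ± 0.08) and Atp6v0c (log2 0.75 ± 0.09) were among the positive ones. Ctsh (log2 -0.85 ± 0.09) and Lgmn (log2 -0.72 ± 0.06) were among the negative ones. Drug and antibody were given to mice that the column names mark as different sexes, and agent and sex cannot be told apart.

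Markers also moved with the treatments. With LY411575 the 6 blood monocyte markers summed to 3198 to 3433 TPM against 1383 to 1397 in controls, and the 6 macrophage markers to 1899.9 to 1959 against 3120.0 to 3126. Hepatocyte markers summed to 629.6 to 648 against 313 to 317.1 TPM. For the antibodies the monocyte sums were 1419 to 2246 against 1212 to 1899.7 TPM, and the macrophage sums 3119 to 3278 against 2854 to 3005. What part of the lysosomal values follows from these shifts was not tested.

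In cultured marrow monocytes DLL4 changed the lysosomal genes widely. After 48 h 5 members were called higher and 13 lower (9.1% and 10.4% of 10234 genes, median log2 difference -0.35 over the members and -0.04 over all genes). Gm2a stood at 1603 and 1694 TPM with DLL4 and 134 and 134 without. The difference was 12.2-fold, with both treated libraries far above (log2 3.61 ± 0.03, adjusted p = 9.9e-13). Ctsh was at 612 and 639 against 143 and 146 TPM (log2 2.11 ± 0.03, adjusted p = 2.9e-11), and Ctsc at 210.1 and 223 against 55.2 and 57.8 (log2 1.92 ± 0.04, adjusted p = 1.8e-10). Man2b1 was at 624 and 661 against 235 and 249 TPM (log2 1.41 ± 0.04, adjusted p = 1.1e-09). All were higher with DLL4 without overlap. Scarb2 stood at 145 and 146 against 67.8 and 68.5 TPM (log2 1.09 ± 0.05, adjusted p = 3.5e-08).

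Of the lower members, Ctsl stood at 97.9 and 102 TPM against 638 and 692 (log2 -2.72 ± 0.06, adjusted p = 1.8e-10), and Ctsd at 995 and 1041 against 6614 and 6714 (log2 -2.71 ± 0.03, adjusted p = 5.9e-12). Gla was at 14.8 and 15.8 against 98.3 and 98.9 TPM (log2 -2.61 ± 0.07, adjusted p = 1.4e-09). DLL4 libraries were below untreated ones in each. In the pump, Atp6v0a1 was at 38.6 and 42.3 against 136 and 149 TPM (log2 -1.79 ± 0.06, adjusted p = 6.8e-09), Atp6v1a at 131 and 132 against 436 and 439.8 (log2 -1.73 ± 0.03, adjusted p = 1.5e-10), and Atp6v0d2 at 4.67 and 6.08 against 16.1 and 18 (log2 -1.51 ± 0.13, adjusted p = 4.7e-06). Atp6v0d1 was at 231 and 242 against 234 and 240.0 TPM, and its groups overlapped (log2 -0.0025 ± 0.04, adjusted p = 0.96). Ctsb was at 1436 and 1501 against 4301 and 4412 TPM (log2 -1.57 ± 0.03, adjusted p = 1.7e-10), and Mitf at 14.3 and 15.5 against 44.2 and 46.3 (log2 -1.54 ± 0.05, adjusted p = 5.9e-09). The other 5 lower members, Lipa, Smpd1, Atp6v1c1, Gusb and Cd68, differed by -1.48 to -1.07. The 6 macrophage markers summed to 3817 to 3894 TPM with DLL4 and 1871 to 1946 without, and the 6 monocyte markers to 109 to 113 and 309 to 332, and their part was not tested.

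**Figure D5:**
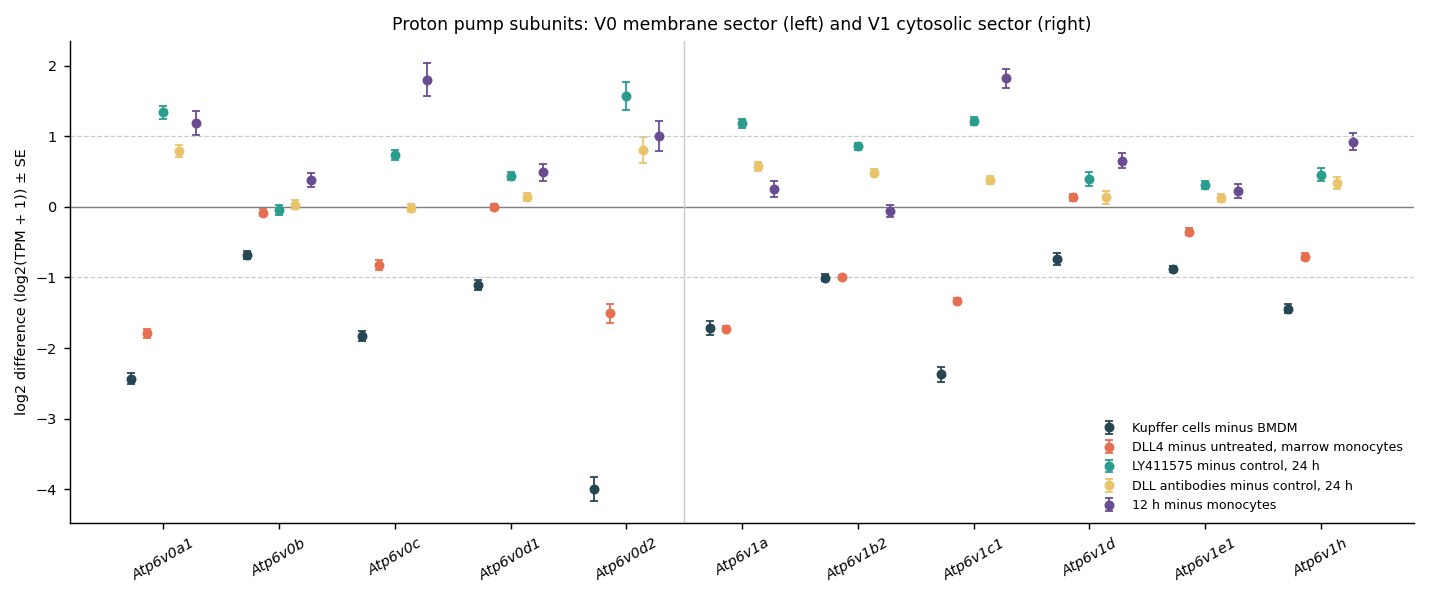
Log2 differences of the 11 pump subunit genes (V0 left, V1 right) with limma SE bars, in 5 comparisons from 4 separately tested tables; dashed lines mark 2-fold. In Kupffer cells against BMDMs all 11 lie below 0, with LY411575 10 lie above, and Atp6v0b, Atp6v0d1, Atp6v1d and Atp6v1e1 stay within 0.5 of 0 with DLL4, LY411575 and the antibodies.

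Calls could be compared between these tables, which share no libraries. All 6 members higher with LY411575 were among the 13 lower with DLL4 in marrow monocytes (100% and 46.2% of each list), where 229 were shared over all genes tested in both, 77.9% of the 294 and 26.8% of the 853. The same 6 were among the 14 lower in Kupffer cells than in BMDMs (100% and 42.9%), against 228 of all genes, 74.0% of 308 and 15.8% of 1440. Lower with DLL4 and lower in Kupffer cells were 9 members (69.2% and 64.3%), with 65.4% and 40.5% over all genes. Each of these counts includes Atp6v0d2, which passed the filter only through the LY411575-treated libraries in the Notch-blockade table. In the Nr1h3 table it passed only through the BMDM libraries, so its place in the counts supports nothing. All 5 members higher with DLL4, Gm2a, Ctsh, Ctsc, Man2b1 and Scarb2, were among the 8 higher in Kupffer cells (100% and 62.5%), with 65.5% and 32.4% over all genes. Such sharing was thus high over all genes as well.

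Sterol and TGF-beta added less in marrow monocytes. Desmosterol gave 1 call, lower, Atp6v0d2 at 7.31 and 8.44 TPM against 16.1 and 18 (log2 -1.02 ± 0.13, adjusted p = 0.0034; 0.127% of all genes higher and 0.117% lower). The call was lost without untreated replicate 1 (-0.95) or desmosterol replicate 2 (-0.93). TGF-beta on DLL4 gave 1 lower, Ctsd at 459.8 and 476 against 995 and 1041 TPM (log2 -1.12 ± 0.03, adjusted p = 6.7e-09; 2.38% and 6.43%). Desmosterol on both gave 0 calls by limma and 0 by limma-voom, with 11 at an unadjusted p below 0.05 (0.127% and 0.0782%).

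The transcription factor genes were seldom called. Tfeb was called once, at 12 h against Kupffer cells, and Mitf once, in marrow monocytes with DLL4, and Tfe3 in no comparison. Over the niche-refilling table Tfe3 stood at 59.7, 62.3, 63.3 and 69.9 TPM in monocytes, 45.7 and 55.5 at 12 h and 75.8, 78.2 and 79.3 in Kupffer cells. Its Kupffer values were above both, by less than 2-fold (log2 0.28 ± 0.08, adjusted p = 0.0026 against monocytes). With DLL4 in marrow monocytes Tfeb stood at 52 and 57.2 against 33.2 and 33.5 TPM, higher without overlap (log2 0.69 ± 0.05, adjusted p = 1.2e-06), while Mitf was lower in the same libraries. Protein amount and location of these factors were not measured here.

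Other genes of the pathway, listed by function, were counted in the same way. Between Kupffer cells and monocytes 14 of 33 other hydrolases and activators were higher and 5 lower (19.2% and 16% of all genes), led by the phosphatase gene Acp5 (6.56 ± 0.16) and the protease gene Ctsf (5.96 ± 0.18), with Ctse lowest (-3.46 ± 0.27). Of 28 other membrane proteins 6 were higher and 3 lower, and of 14 genes that deliver hydrolases 3 and 3, near the same 19.2% and 16% of all genes. None of 8 other pump subunit genes were called. Against BMDMs Kupffer cells had 8 of 31 hydrolases higher and 3 lower (20.6% and 15.9% of all genes), and 6 of 14 delivery genes lower with none higher, led by the mannose 6-phosphate receptor gene Igf2r (-3.51 ± 0.12). Of 16 genes of nutrient signalling at the lysosome 2 were higher and 6 lower there (20.6% and 15.9% of all genes), with Rragd at -2.58 ± 0.19.

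In marrow monocytes DLL4 gave 3 of 31 other hydrolases higher and 4 lower (9.1% and 10.4% of all genes), and 3 of 14 delivery genes lower, again with Igf2r (-4.42 ± 0.06). LY411575 gave 2 of 14 delivery genes higher (3.73% of all genes, and 2.65% lower), Igf2r (2.68 ± 0.12) and Gga2 (1.00 ± 0.11), while Acp5 was lower (-2.23 ± 0.11). Acp5 is also a marker of osteoclasts, and the 4-gene osteoclast list summed to 145 to 158 TPM with LY411575 against 715.6 to 719, almost all of it Acp5. Over 6 against 4 days of BMDM culture 5 of 32 hydrolases and 3 of 18 autophagy genes were higher and none lower (6.44% and 7.33% of all genes), with Acp5 at 2.11 ± 0.14 and Ctsk at 1.86 ± 0.24.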

How the data were processed

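RNA-seq libraries of mouse cells were deposited as 8 tables of TPM, a share of transcripts scaled by transcript length, made by the authors with 1 isoform per gene, and per the submitters' processing notes with STAR and HOMER on mm10, with versions not given in the sources used here. The isoform differs between tables for 11 of the 45 members. Summed deposited TPM ran from 510684 to 574479 per library, and whole reads were recovered from TPM and length for limma-voom. Each table was fitted in limma 3.58.1 (R 4.3.3, trend on) on log2(TPM + 1), with a mean per group, over genes with at least 4 TPM in at least 2 libraries, with Benjamini-Hochberg adjustment over all genes of the table, and was tested on simulated data. The comparisons were 38 pairs and 3 interactions. Groups follow the labels. The members, lists and comparisons were chosen with earlier results of these data known.

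In each comparison up to 6 called members per direction with the largest differences were given with all library values, Tfeb, Tfe3, Mitf, Atp6v0d1, Atp6v0d2, Ctsl, Lgmn, Lamp1 and Cd68 could be named anywhere, and pathway lists gave up to 3 examples. Members named beyond that rule (those under 2-fold, pump subunits at 12 h, Scarb2 in Kupffer cells, Psap and Smpd1 in places) were chosen after their values were seen. Reads are not unique molecules, and no intervals for counting error were made. Replicate pairs numbered 69, with none identical. The chi-square per degree of freedom between recovered reads of a pair ran from 1.56 to 53.42. In the Smad4 BMDM table the control pair with TGF-beta stood at 27.89, and the other pairs at 1.89 to 4.59. Among C57BL/6J BMDMs the untreated 24 h pair stood at 22.89, all 3 agents at 72 h at 13.88, and the others at 1.56 to 3.84. Comparisons with these groups rest on less alike libraries. Shared replicate numbers were tried as a block. Text and tables were handled with Python 3.11.15, pandas 2.3.3 and numpy 2.4.6, and figures drawn with matplotlib 3.10.9.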

Additional observations from a re-analysis of the deposited data

Results flagged for a closer look

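In groups of 4 libraries a single value stood apart from the rest in 8 of 90 tests of a member, by Dixon's ratio of gap to range, and chance gives such a value in about 1 in 20 groups. In blood monocytes these were Ctsh in replicate 4 (the library titled a pool) at 402 TPM, Smpd1 in replicate 1 at 18.9 TPM, Atp6v0d2 in replicate 1 at 0 TPM and Atp6v1h in replicate 3 at 32.8 TPM. In libraries treated with antibodies to DLL1 and DLL4 they were Ctsh in replicate 4 at 579 TPM, Hexa in replicate 4 at 519 TPM, Atp6v0d2 in replicate 3 at 5.24 TPM and Atp6v1e1 in replicate 3 at 143 TPM.

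The response of Ctsh to TGF-beta differed between Smad4-deleted and control BMDMs by -1.11 on the log2 scale in limma's interaction test, the 1 member whose response differed by at least 2-fold.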

How the results depend on the processing

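Of 130 member calls, 112 held under every alternative run and none reversed. Calls lost numbered 14 when single libraries were left out, 8 under quantile normalization, 2 with limma-voom, 2 with no expression filter, and 0 with a pseudocount of 0.25. The lost calls are named beside their results, except that Gm2a with DMHCA on DLL4 and TGF-beta at 72 h also stood at -0.996 under quantile normalization. In each of the 6 tables with shared replicate numbers at least 1 same-numbered pair of libraries had deviations correlated below 0.1, and the numbers were not taken as pairs. That rule cannot settle pairing, since 1 low value is enough to meet it. In the Nr1h3 table these correlations reached 0.339, with a median of 0.0145. In the STAB2 table all 6 were positive, from 0.057 to 0.137 with a median of 0.136. In groups of 2 the deviations mirror each other, so values there repeat. With the replicate block 88 of 88 calls that could be refitted held, with 22 members called in Kupffer cells against BMDMs and 18 with DLL4 in marrow monocytes, as without it. Groups of 2 limit every test of single libraries, a lone library being assumed to vary like the rest of its table, and low TPM limits Atp6v0d2. The block on the title number that 2 Smad4-deleted Kupffer libraries share was added after seeing the data and left both counts at 0.

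Counts of called members with no minimum fold follow, each with the percentage of all tested genes at adjusted p below 0.05 in brackets. They were 38 in Kupffer cells against monocytes (72.5%) and 37 at 12 h against monocytes (62.4%). The steps to 24, 48 and 168 h gave 18 (26.9%), 8 (12.1%) and 17 (34%). Against Kupffer cells there were 35 at 12 h (57.8%) and 12 at 336 h (21.2%). The count was 13 for Nr1h3 in Kupffer cells (23.4%) and 1 for TIM4- against TIM4+ libraries labelled Nr1h3 knockout (1.62%). It was 1 for Nr1h3 in BMDMs (2.09%), 42 for Kupffer cells against BMDMs (81.3%) and 17 for STAB2 low against high (29.7%). In the Smad4 BMDM table it was 24 for TGF-beta (36%), 28 for DLL4 (45%), 20 for DAPT (29.3%) and 33 for TGF-beta on DLL4 (45.9%). Genotype gave 28 (23.8%), TGF-beta and DLL4 in deleted cells 7 (5.62%) and 27 (42.4%), and the TGF-beta interaction 8 (6.52%). In C57BL/6J BMDMs at 24 h it was 25 for DLL4 (28.6%), 27 for DMHCA (47.9%), 32 for TGF-beta on DLL4 (31.4%) and 13 for DMHCA on both (17.6%). At 72 h it was 24 for DLL4 (15.4%), 28 for TGF-beta on DLL4 (38.6%) and 21 for DMHCA on both (33.5%). Culture time gave 38 (64.2%). LY411575 gave 35 (28.9%), the antibodies 23 (12.8%) and their difference 20 (13.5%). In marrow monocytes it was 40 for DLL4 (72.6%), 11 for desmosterol (13.3%), 33 for TGF-beta on DLL4 (51.6%) and 4 for desmosterol on both (7.91%). These changes follow from the setting itself, which drops the 2-fold limit.

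With a pseudocount of 0.25, 336 h against Kupffer cells gave 1 call in place of 0. With limma-voom 24 h against 12 h gave 1, the antibodies 1 and DMHCA on DLL4 and TGF-beta at 72 h 1, the latter also 1 under quantile normalization, and the cause was not tested. With single libraries left out the counts ran from 0 to 3 for 24 h against 12 h, 0 to 2 for 168 h against 72 h (2 without 72 h replicate 1), 0 to 1 for 336 h against Kupffer cells (1 without 336 h replicate 2 or Kupffer replicate 1), 0 to 1 for Nr1h3 in Kupffer cells (1 without control replicate 1), 1 to 2 for DAPT (2 without DLL4+DAPT replicate 2) and 1 to 2 for DMHCA on DLL4 and TGF-beta at 72 h (1 without the DMHCA-treated replicate 1). Those of desmosterol ran from 0 to 1 (0 without untreated replicate 1 or desmosterol replicate 2). Other scalings shifted the median of all genes by over 0.1 in 7 instances, the largest being 0.18 for culture time.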
